A study of Mus musculus with 6 samples.

Results

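The transcripts of 10 glycolytic enzymes (Hk2, Pfkp, Pfkl, Pfkm, Aldoa, Gapdh, Pgk1, Pgam1, Eno1 and Ldha) were examined in microglia of an amyloid mouse model with and without interleukin-3. They were taken by gene symbol from a table of 20129 genes, and all 10 passed the expression filter of the test, as did 11900 genes in all. Of the 6 libraries, 3 came from 5xFAD mice (replicates 4, 5 and 6) and 3 from Il3-/-5xFAD mice, which lack Il3 (replicates 1, 2 and 3), all aged 5 months and labelled C57BL6/J. Both groups carried the 5xFAD transgenes, mutant human genes of familial Alzheimer's disease driven by the neuronal Thy1 promoter, so mice without amyloid were not part of the comparison. Each library was RNA of brain cells sorted as live (7AAD-), CD45+ and CD11b+ and pooled from 2 male and 2 female mice. That gate also admits other myeloid cells.

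Glycolysis splits glucose into pyruvate in the cytosol and yields ATP without oxygen. Hexokinase traps glucose in the cell, phosphofructokinase makes the committed step and is the main point of control, and the enzymes from aldolase to enolase carry the sugar phosphates on towards pyruvate, which lactate dehydrogenase can turn into lactate. Macrophages and microglia are known to lean more on this pathway when they are activated, and several of its genes are textbook targets of the hypoxia-inducible factor HIF. Phosphofructokinase is a tetramer built from liver (Pfkl), muscle (Pfkm) and platelet (Pfkp) subunits, which differ in how they respond to metabolites.

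The promoters of the 3 phosphofructokinase genes, of which only Pfkp passed the test between the groups, are shown with those of Pgk1 and Ldha, classical hypoxia-responsive genes. Each is the stretch of 250 bases before the transcription start in RefSeq (build GRCm38.p6), written 5′ to 3′ on the strand of the gene, and capitals mark the hypoxia-response cores ACGTG and GCGTG on either strand. For genes with several starts the window richest in G and C is shown. Pfkp lies at chr13:6648772-6649021 (minus strand), Pfkl at chr10:78009808-78010057 (minus strand), Pfkm at chr15:98108306-98108555 (plus strand), Pgk1 at chrX:106186850-106187099 (plus strand) and Ldha at chr7:46845554-46845803 (plus strand).
Pfkp: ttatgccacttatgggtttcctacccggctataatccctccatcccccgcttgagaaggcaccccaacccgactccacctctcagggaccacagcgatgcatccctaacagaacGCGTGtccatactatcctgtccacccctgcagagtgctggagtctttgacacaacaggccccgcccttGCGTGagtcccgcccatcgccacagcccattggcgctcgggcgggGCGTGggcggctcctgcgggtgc
Pfkl: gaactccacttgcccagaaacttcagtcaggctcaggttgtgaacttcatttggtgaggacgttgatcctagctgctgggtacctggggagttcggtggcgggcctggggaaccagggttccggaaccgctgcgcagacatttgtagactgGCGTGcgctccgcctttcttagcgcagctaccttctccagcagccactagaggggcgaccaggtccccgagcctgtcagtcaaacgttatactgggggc
Pfkm: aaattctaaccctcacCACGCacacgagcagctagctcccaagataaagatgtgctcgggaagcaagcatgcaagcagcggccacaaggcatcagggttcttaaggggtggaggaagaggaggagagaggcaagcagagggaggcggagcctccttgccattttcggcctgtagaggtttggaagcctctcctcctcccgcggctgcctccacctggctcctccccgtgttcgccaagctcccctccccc
Pgk1: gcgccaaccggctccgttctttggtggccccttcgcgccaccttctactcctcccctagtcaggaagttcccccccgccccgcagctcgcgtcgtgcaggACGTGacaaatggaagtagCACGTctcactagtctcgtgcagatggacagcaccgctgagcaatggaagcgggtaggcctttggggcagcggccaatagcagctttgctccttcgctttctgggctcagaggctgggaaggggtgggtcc
Ldha: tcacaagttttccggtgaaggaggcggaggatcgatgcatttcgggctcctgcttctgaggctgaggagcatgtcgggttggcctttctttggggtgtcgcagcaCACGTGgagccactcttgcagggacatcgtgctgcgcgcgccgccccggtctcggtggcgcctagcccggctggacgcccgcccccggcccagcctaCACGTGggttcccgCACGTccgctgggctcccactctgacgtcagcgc
The window of Pfkp held 3 cores, that of Pfkl 1, that of Pfkm 1 and that of Pgk1 2. The Ldha window held 5 matches, of which 4 were overlapping pairs inside the E-box CACGTG, whose letters contain the core on both strands. Over all starts listed for the 10 genes, 16 of 18 windows held at least 1 core. Some windows of Eno1, Aldoa and Pfkm overlap each other, so the same core can be counted in more than 1 window. Among 32851 mouse promoter windows of the same length, 16.6% held ACGTG, 28.2% held GCGTG and 38.6% held either. These matches describe letters only.

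The libraries held 27970850 to 37605490 reads. The targeted gene, Il3, had 29 to 61 reads in the 5xFAD libraries and none in the Il3-/-5xFAD libraries, where a count of 0 allows up to 0.107 CPM (counts scaled by library size; counting error only). The labelled cell type was borne out by its markers, since 10 microglial genes (among them P2ry12, Tmem119 and Cx3cr1) summed to between 38593 and 42790 CPM in every library. The neuronal list summed to at most 5.01 CPM. Differences were tested with limma on log2(CPM + 1) over all 11900 genes, with the sign of Il3-/-5xFAD minus 5xFAD and p adjusted by Benjamini-Hochberg, and p-values measure the spread between pools. In bulk RNA, fewer cells of a type and less RNA per cell cannot be told apart.

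Of the 10 enzymes, Pfkp fell in Il3-/-5xFAD, none rose and 9 did not pass the test, where 0.63% of all tested genes were called lower and 0.252% higher. In CPM, Pfkp measured 14.9, 17.6 and 20.7 in 5xFAD replicates 4, 5 and 6, against 8.83, 6.78 and 8.18 in Il3-/-5xFAD replicates 1, 2 and 3. Every 5xFAD library lay above every library without Il3, and the lowest 5xFAD value was well above the highest of the other group. The group means were 17.7 ± 2.90 and 7.93 ± 1.05 CPM (SD, n = 3), or 44.8% of the 5xFAD level. The log2 difference was -1.06 ± 0.18 (SE; limma adjusted p = 0.0225), and Pfkp ranked 33 among all tested genes by p. It rested on 191 to 777 reads per library. The call was lost without 5xFAD replicate 5, 5xFAD replicate 6 or Il3-/-5xFAD replicate 2 (limma adjusted p of 0.0940, 0.182 and 0.0674), with no expression filter (0.205) and without the variance trend (0.0977), while the log2 difference lay between -1.18 and -0.81 in all 17 alternatives. On reads recovered from the table, Pfkp was called by edgeR's quasi-likelihood test (adjusted p = 0.0292) and by DESeq2 (adjusted p = 5.96e-06).

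These calls stand beside different backgrounds. Of all genes tested, 0.00994% were called lower with no filter, 0.042% without the variance trend, 0.281% with the length trend removed, 0.294% by edgeR and 3.45% by DESeq2. With 1 library left out the share was 1.51%, 0.185% and 0.0504% (without 5xFAD replicates 4, 5 and 6) and 0.983%, 0.378% and 3.12% (without Il3-/-5xFAD replicates 1, 2 and 3). Pfkp was called in 12 of the 17 alternatives.

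**Figure D1:**
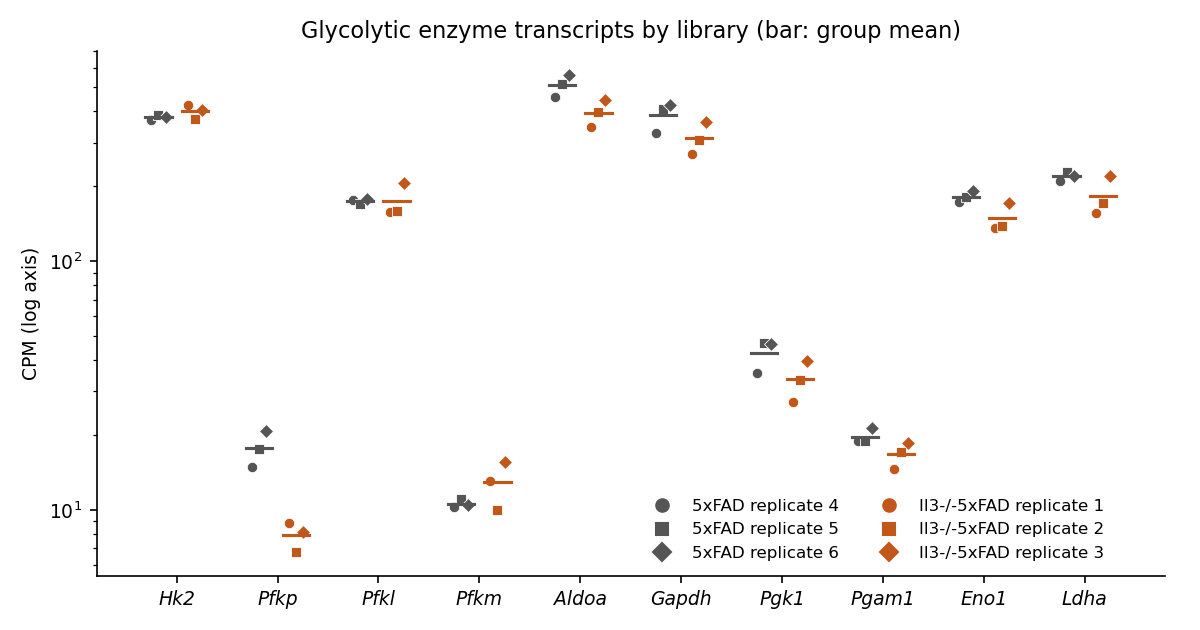
CPM of the 10 enzymes (log axis) in each library, grey for 5xFAD and orange for Il3-/-5xFAD, with marker shapes for replicates and bars for group means. Pfkp is separated by the widest gap between groups, whereas Hk2, Pfkl, Pfkm, Gapdh, Pgk1 and Ldha overlap.

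The other phosphofructokinase subunits did not pass the test. Pfkl, the liver subunit, measured 177, 170 and 177 CPM in 5xFAD replicates 4, 5 and 6, against 158, 160 and 206 in Il3-/-5xFAD replicates 1, 2 and 3. Its groups overlapped, with Il3-/-5xFAD replicate 3 above all other libraries and replicates 1 and 2 below them. The log2 difference was -0.01 ± 0.10 (SE; limma adjusted p = 0.967). Pfkm, the muscle subunit, measured 10.2, 11.1 and 10.4 CPM in 5xFAD, against 13.1, 10.01 and 15.6 in Il3-/-5xFAD, in the same order of replicates. It had the largest positive value of the 10 enzymes, 0.25 ± 0.18 (limma adjusted p = 0.541), but Il3-/-5xFAD replicate 2 lay below every 5xFAD library.

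The subunits were then compared with one another inside each library, as 3 pairs of log2 ratios of CPM + 1. The ratio of Pfkp to Pfkl was -3.49, -3.20 and -3.04 in 5xFAD replicates 4, 5 and 6 and -4.02, -4.37 and -4.49 in Il3-/-5xFAD replicates 1, 2 and 3. The groups did not overlap, and the ratio was lower by -1.05 ± 0.19 (SE) in Il3-/-5xFAD (two-sided exact permutation test, p = 0.1, adjusted p = 0.15 over 3 pairs). The ratio of Pfkp to Pfkm was 0.50, 0.63 and 0.92 in 5xFAD and -0.52, -0.50 and -0.86 in Il3-/-5xFAD. It was positive in every 5xFAD library and negative in every library without Il3, a difference of -1.31 ± 0.17 (exact permutation p = 0.1, adjusted p = 0.15). With 3 libraries per group, 0.1 is the smallest p that this test can give, so no pair could pass 0.05. The ratio of Pfkm to Pfkl was -3.93 ± 0.09 in 5xFAD and -3.67 ± 0.19 in Il3-/-5xFAD (SD, n = 3), with overlapping groups and a difference of 0.26 ± 0.12 (exact permutation p = 0.2, adjusted p = 0.2).

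**Figure D2:**
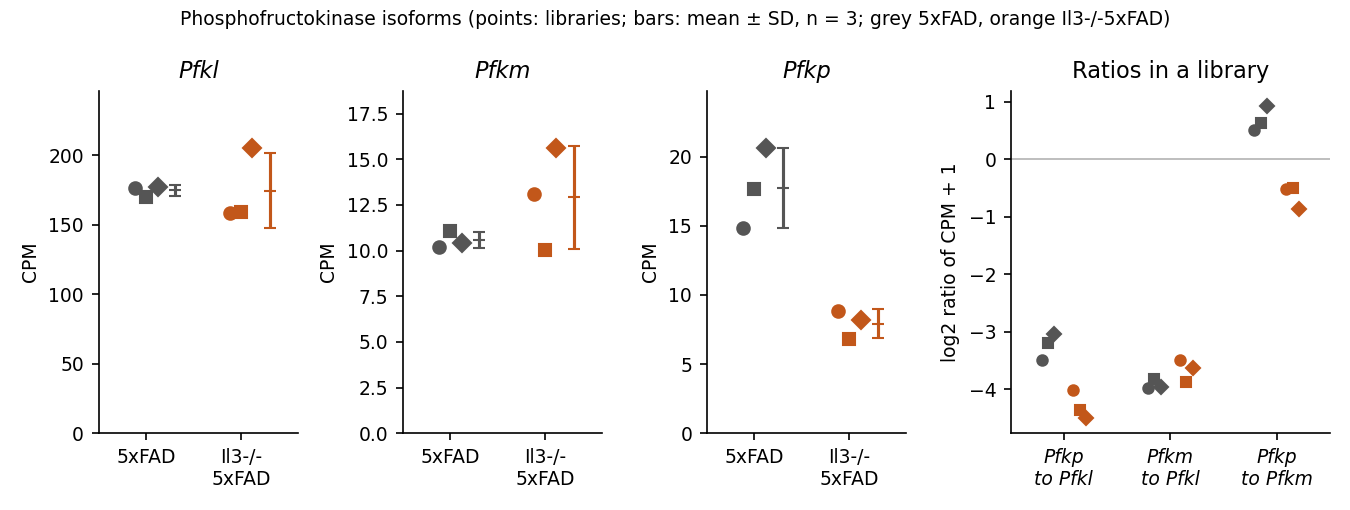
CPM of Pfkl, Pfkm and Pfkp by library (axes from 0, mean ± SD, n = 3) and, on the right, the log2 ratios of CPM + 1 between pairs of isoforms in each library. The ratio of Pfkp to Pfkm lies above 0 in the 3 5xFAD libraries and below 0 in the 3 Il3-/-5xFAD libraries.

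To compare levels between the isoforms, CPM was divided by the length of the longest protein-coding GENCODE transcript. On that scale Pfkl made up 85.5% ± 1.22 of the phosphofructokinase transcript in 5xFAD and 88.0% ± 1.47 in Il3-/-5xFAD (SD, n = 3). Pfkp made up 7.79% ± 1.15 and 3.64% ± 0.621, and Pfkm 6.70% ± 0.394 and 8.41% ± 1.03. Pfkp exceeded Pfkm per kilobase in each 5xFAD library, if only by 3.59 against 3.55 CPM per kb in replicate 4, and was below it in each Il3-/-5xFAD library. Pfkp also has a shorter coding transcript of 2679 bases in place of 4145, and with that length its share was 11.6% ± 1.64 and 5.52% ± 0.922. It was still below Pfkm per kilobase in each Il3-/-5xFAD library. In 5xFAD the order could not change, because a shorter length only raises Pfkp per kilobase. Other lengths of Pfkm were not tried. The summed level of the 3 subunits was 54.8 ± 1.25 CPM per kb in 5xFAD and 53.2 ± 8.12 CPM per kb in Il3-/-5xFAD, with overlapping groups.

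The longest coding transcripts of Pfkp, Pfkm and Hk2 shared no stretch of 50 bases with transcripts of other genes in GENCODE, and that of Pfkl shared 0.0543% of its stretches. Over all transcripts, exons of Pfkm overlap those of Gm26513 on the same strand over 341 bases (10.2% of its exonic bases). Gm26513 has no entry of its own among the genes counted, and its part in the reads of Pfkm was not tested. The level of Pfkm, and its comparison with Pfkp, is therefore uncertain by an unknown amount. Exons of Pfkp overlap those of Pitrm1 on the opposite strand over 748 bases. Pitrm1, which encodes a mitochondrial protease, was at 39.4 to 44.1 CPM with a log2 difference of 0.02 ± 0.10 (limma adjusted p = 0.934). Exons of Gapdh overlap those of Iffo1 over 68 bases, those of Aldoa overlap Fam57b over 25 and those of Pfkm overlap Senp1 over 18, all on the opposite strand. The kit keeps the strand, but whether counting used it is not given in the sources used here.

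Marker lists of other cells mostly had lower sums in Il3-/-5xFAD, the group in which Pfkp was lower. All 9 tested genes of a 10-gene neutrophil list (S100a8, S100a9 and others) were lower without overlap, and 5 of them passed the test, beside 11.5% and 0.63% of all tested genes. The share of 0.63% is also the background of the called counts that follow. The list summed to 1167 to 3097 CPM in 5xFAD and 204 to 786 CPM in Il3-/-5xFAD, with Ly6g at 0 in Il3-/-5xFAD replicate 2. Monocyte genes (2 of 7 tested called lower) summed to 184 to 343 and 96.1 to 183 CPM, and lymphocyte genes (3 of 6 called lower) to 78.1 to 133 and 41.1 to 55.4 CPM. Choroid plexus genes (2 of 4 called lower) summed to 182 to 515 and 63.1 to 130 CPM. Astrocyte genes, none of 3 called, summed to 20.3 to 43.5 and 7.79 to 15.4 CPM. Oligodendrocyte genes (none of 4 called) summed to 115 to 130 and 92.3 to 100.5 CPM, and endothelial genes (none of 4 called) to 57.0 to 74.0 and 53.1 to 55.7 CPM. Erythrocyte genes summed to at most 2.15 CPM, with means of 0.47 in 5xFAD and 0.80 in Il3-/-5xFAD. Not every marker was lower, since 1 of 6 lymphocyte, 1 of 4 oligodendrocyte and 1 of 4 endothelial genes had positive differences. The endothelial gene was higher without overlap, beside 9.65% of all tested genes. Within each group the library with the least neutrophil signal (5xFAD replicate 4 and Il3-/-5xFAD replicate 2) was also the lowest in Pfkp. The libraries with the most neutrophil signal (5xFAD replicate 5 and Il3-/-5xFAD replicate 3) were not the highest in Pfkp, which were 5xFAD replicate 6 and Il3-/-5xFAD replicate 1. The part of these cells in the differences of Pfkp and of the enzymes below was not tested.

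Hk2, the inducible hexokinase that opens the pathway, measured 371, 388 and 379 CPM in 5xFAD replicates 4, 5 and 6, against 426, 372 and 404 in Il3-/-5xFAD replicates 1, 2 and 3. The groups overlapped, with Il3-/-5xFAD replicate 2 inside the 5xFAD range, and the log2 difference was 0.08 ± 0.08 (SE; limma adjusted p = 0.684). Per kilobase, Hk2 made up 51.0% ± 0.979 of the transcript of Hk1, Hk2 and Hk3 together in 5xFAD and 51.1% ± 1.71 in Il3-/-5xFAD. Hk3, the myeloid hexokinase, followed with 39.7% ± 1.40 and 41.1% ± 1.65, and Hk1 with 9.27% ± 0.648 and 7.82% ± 0.307.

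The 6 enzymes from aldolase to lactate dehydrogenase all had negative log2 differences, from -0.37 to -0.23, and none passed. Aldoa, the aldolase that cleaves fructose bisphosphate, measured 456, 518 and 562 CPM in 5xFAD, against 346, 398 and 443 in Il3-/-5xFAD, in the order of replicates given above. No Il3-/-5xFAD library reached the lowest 5xFAD value, and the log2 difference was -0.37 ± 0.11 (SE; limma adjusted p = 0.104). Gapdh, the glyceraldehyde phosphate dehydrogenase often used as a reference gene, measured 327, 408 and 426 CPM in 5xFAD, against 271, 306 and 363 in Il3-/-5xFAD. These groups overlapped, because Il3-/-5xFAD replicate 3 lay above 5xFAD replicate 4 (-0.31 ± 0.12, limma adjusted p = 0.232). Pgk1, the kinase that makes the pathway's earliest ATP, measured 35.4, 46.8 and 46.5 CPM, against 27.2, 33.4 and 39.7, and overlapped in the same way (-0.36 ± 0.15, limma adjusted p = 0.267).

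Pgam1, the phosphoglycerate mutase, measured 18.9, 18.9 and 21.3 CPM in 5xFAD, against 14.6, 17.0 and 18.6 in Il3-/-5xFAD. The groups were apart by less than the spread inside either of them (-0.23 ± 0.14, limma adjusted p = 0.450). Eno1, the main enolase, measured 173, 181 and 192 CPM in 5xFAD, against 136, 138 and 172 in Il3-/-5xFAD. Its groups were just apart, with Il3-/-5xFAD replicate 3 a little under 5xFAD replicate 4 (-0.29 ± 0.10, limma adjusted p = 0.157). Ldha, the lactate dehydrogenase subunit that favours lactate formation, measured 209, 228 and 220 CPM in 5xFAD, against 156, 172 and 220 in Il3-/-5xFAD. Replicate 3 again sat among the 5xFAD libraries (-0.27 ± 0.11, limma adjusted p = 0.247).

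**Figure D3:**
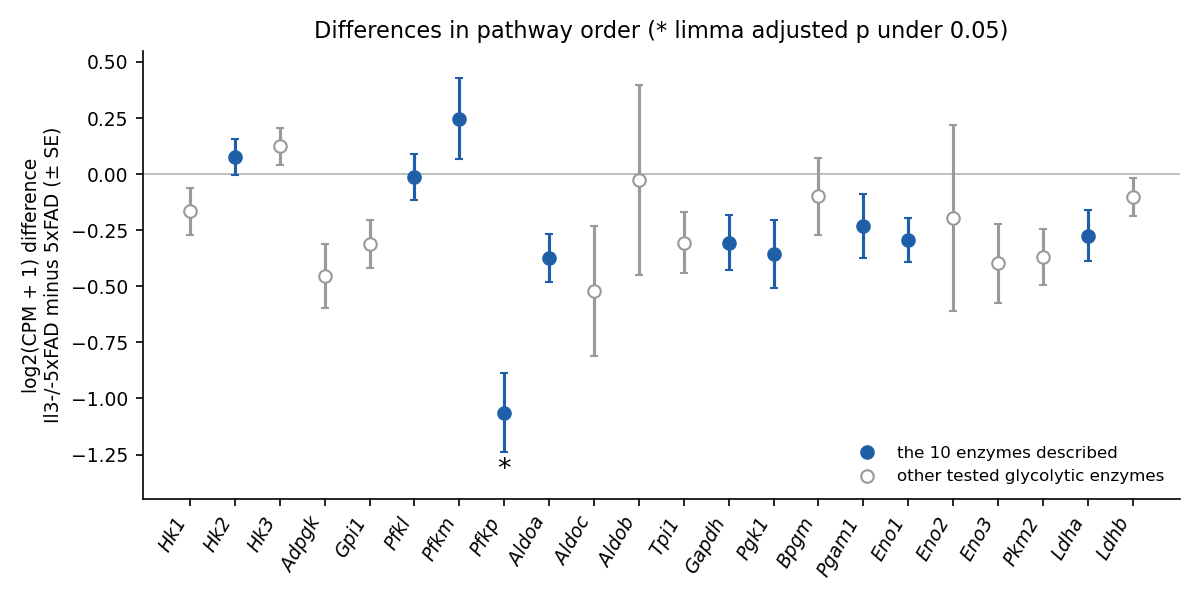
Log2(CPM + 1) differences (Il3-/-5xFAD minus 5xFAD, ± SE) of the tested glycolytic enzymes in pathway order, filled for the 10 enzymes described and open for the others. Pfkp at -1.06 carries the only asterisk (limma adjusted p under 0.05), and the 6 enzymes from Aldoa to Ldha lie between -0.37 and -0.23.

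Across the 10 enzymes the median log2 difference was -0.28, beside -0.00059 over all tested genes. Of the 10, 8 were negative (50.1% of all tested genes were). Lower levels without overlap were found for 4 of them (Pfkp, Aldoa, Pgam1 and Eno1), beside 11.5% of all tested genes, and higher levels without overlap for none, beside 9.65%. Limma's unadjusted p was under 0.05 with a lower level for 6 of the 10, beside 9.83% of all tested genes. Without Pfkp, 7 of the other 9 were negative and 3 were lower without overlap. Limma's unadjusted p was then under 0.05 with a lower level for 5 of the 9. The members share their libraries and so are not independent of each other. They were also chosen with earlier results of these data known.

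The 6 enzymes from aldolase to lactate dehydrogenase followed a shared pattern over the libraries. Pearson's r between pairs of them ran from 0.89 to 0.99 over 6 libraries. These libraries differ in genotype, depth and the marker sums of other cells. The part of those differences in r was not tested. In all 6, Il3-/-5xFAD replicate 1 was the lowest and replicate 3 the highest of its group, and in 5 of 6 replicate 4 was the lowest of 5xFAD. Without Il3-/-5xFAD replicate 3, limma called Aldoa, Eno1 and Ldha lower beside Pfkp (log2 differences of -0.46, -0.40 and -0.42, adjusted p of 0.0398, 0.0288 and 0.0285), in a fit that called 3.12% of all tested genes lower. The pattern was not confined to these 6 genes, since r with them was 0.66 to 0.83 for Pfkp and 0.41 to 0.70 for Pfkl. Hk2 and Pfkm ran otherwise, with r of -0.64 to -0.36 (Hk2) and -0.33 to -0.01 (Pfkm) with the same 6 genes.

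**Figure D4:**
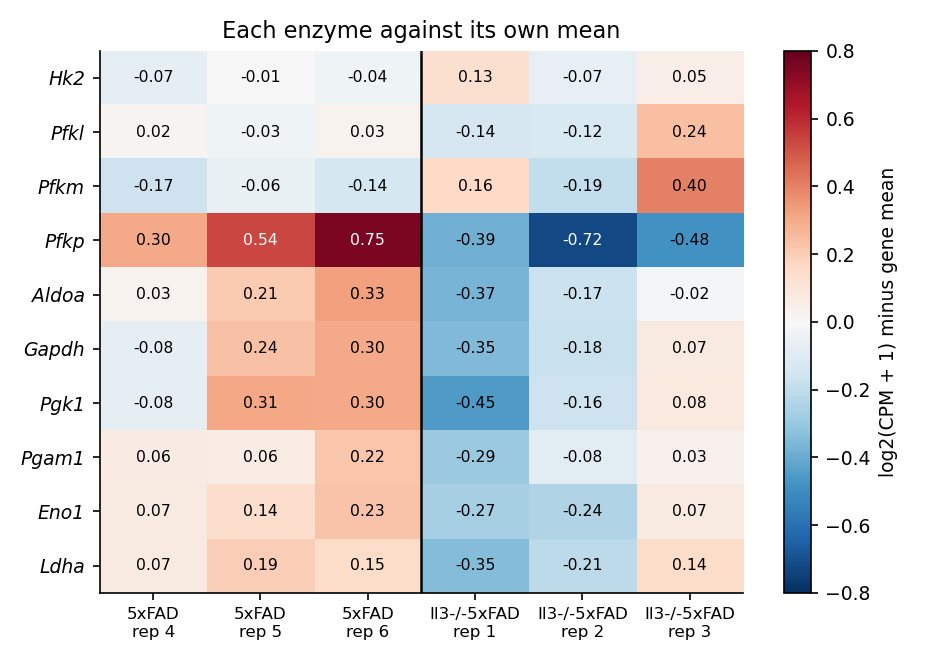
Log2(CPM + 1) of each enzyme minus its mean over the 6 libraries, printed in each cell, with 5xFAD left and Il3-/-5xFAD right of the line. From Aldoa to Ldha, Il3-/-5xFAD replicate 1 has the lowest value of each row (-0.45 to -0.27), while replicate 3 lies between -0.02 and 0.14.

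Short transcripts moved in the same libraries. The 2351 shortest tested genes with a length, which include Aldoa and Gapdh, had a median log2 difference of -0.14, and the 2351 longest, which include Hk2, one of 0.09. The 2350 genes next to the shortest in length, which include Pgk1, Pgam1, Eno1 and Ldha, had a median of only -0.03. The median deviation of the shortest genes from their own means was -0.13 and -0.11 in Il3-/-5xFAD replicates 1 and 2 and 0.03 in replicate 3, beside 0.08 in each 5xFAD library. With each library's trend with transcript length removed, Aldoa had a log2 difference of -0.28, Gapdh -0.20, Pgk1 -0.30, Pgam1 -0.17, Eno1 -0.26 and Ldha -0.22. The median of the 10 enzymes was then -0.21, and Pfkp was at -1.10 (limma adjusted p = 0.0232).

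Per kilobase, the order of the 10 enzymes in 5xFAD was Aldoa (331 ± 34.6 CPM per kb, SD, n = 3), Gapdh (273 ± 37.1), Ldha (121 ± 5.21), Eno1 (89.7 ± 4.75), Hk2 (68.8 ± 1.53), Pfkl (46.9 ± 1.08), Pgk1 (23.5 ± 3.55), Pgam1 (11.1 ± 0.759), Pfkp (4.28 ± 0.699) and Pfkm (3.67 ± 0.154). Aldoa and Gapdh overlapped between libraries, as did Pfkp and Pfkm. In Il3-/-5xFAD the order was the same except that Pfkm (4.49 ± 0.979 CPM per kb) stood above Pfkp (1.91 ± 0.253), while Eno1 (73.4 ± 9.95) and Hk2 (72.6 ± 4.95) overlapped. Several levels are uncertain because the genes have near copies: of the stretches of 50 bases, 82.5% of Gapdh occurred in transcripts of other genes, 72.2% of Eno1, 68.0% of Pgk1 and 41.5% of Pgam1, against 16.6% of Ldha and 13.5% of Aldoa. How reads with several matches were counted is not given in the sources used here, and leaving them out would lower these levels.

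Of 19 other glycolytic enzymes 12 were tested, and none passed, with 11 of 12 differences negative and a median of -0.25. Pkm2 in the table (pyruvate kinase, now Pkm), the most abundant, averaged 634 ± 87.8 CPM in 5xFAD, against 492 ± 73.9 in Il3-/-5xFAD (SD, n = 3; -0.37 ± 0.12 SE, limma adjusted p = 0.159). Ldhb, the lactate dehydrogenase subunit that favours pyruvate, was at 316 ± 12.3 and 295 ± 26.0 CPM (-0.10 ± 0.08, limma adjusted p = 0.589). Per kilobase, Ldha made up 33.2% ± 0.552 of Ldha and Ldhb together in 5xFAD and 30.7% ± 1.95 in Il3-/-5xFAD. At the aldolase step Aldoa made up 99.5% to 99.8% in every library, and at the enolase step Eno1 ran from 77.0% to 87.0%.

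Among regulators of phosphofructokinase, none of 4 tested genes passed. Pfkfb3, whose product makes the allosteric activator of phosphofructokinase, averaged 295 ± 9.75 CPM in 5xFAD, against 339 ± 42.0 in Il3-/-5xFAD (0.19 ± 0.09, limma adjusted p = 0.340), and Pfkfb4 at 85.4 ± 0.786 and 79.7 ± 7.23 CPM (-0.10 ± 0.09, limma adjusted p = 0.617).

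Of 9 tested transporters of glucose and lactate none passed, with a median of -0.23, 4 lower and 1 higher without overlap (11.5% and 9.65% of all tested genes). Slc2a5, the fructose transporter typical of microglia, was at 526 ± 44.6 and 566 ± 28.9 CPM (0.11 ± 0.09, limma adjusted p = 0.581), and Bsg, the chaperone of lactate carriers, at 379 ± 18.9 and 325 ± 53.4 CPM (-0.23 ± 0.11, limma adjusted p = 0.308). Of the glucose transporter genes, 3 named after their values were seen were lower without overlap. Slc2a6 measured 12.9, 11.8 and 16.5 CPM in 5xFAD, against 8.70, 6.96 and 7.85 in Il3-/-5xFAD (-0.73 ± 0.18, limma adjusted p = 0.0743). Slc2a3 had a log2 difference of -0.69 ± 0.19 (limma adjusted p = 0.0926) and Slc2a1 one of -0.34 ± 0.10 (limma adjusted p = 0.120).

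The pathways that glycolysis feeds held no called gene. Of 12 genes for pyruvate entry to mitochondria the median was 0.04; Pdk1, which inhibits pyruvate dehydrogenase, was at 152 ± 12.2 and 176 ± 6.22 CPM (0.22 ± 0.08, limma adjusted p = 0.214), and Dld had a difference of 0.08 ± 0.09. The 8 pentose phosphate genes had a median of -0.18, with Pgd at -0.17 ± 0.09 and Tkt, a transketolase, at -0.30 ± 0.10 (limma adjusted p = 0.150). The 16 genes of the tricarboxylic acid cycle had a median of -0.08, with Sdha, a subunit of succinate dehydrogenase, at -0.06 ± 0.09. Negative differences were found for 7 of 8 pentose phosphate genes and 15 of 16 genes of the tricarboxylic acid cycle. For pyruvate entry the count was 6 of 12, beside 50.1% of all tested genes.

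Genes around HIF did not pass either. Of 8 genes of the HIF pathway the median was -0.06, and Hif1a, the oxygen-regulated subunit, averaged 268 ± 50.5 CPM in 5xFAD, against 229 ± 42.2 in Il3-/-5xFAD (-0.22 ± 0.15, limma adjusted p = 0.486). Its partner Arnt had a difference of 0.17 ± 0.09. Of 12 tested hypoxia targets outside glycolysis 11 were negative with a median of -0.18. P4ha1, a collagen prolyl hydroxylase, was at -0.16 ± 0.11 and Kdm3a, a histone demethylase, at 0.12 ± 0.10. Bnip3, a mitophagy receptor gene named after its values were seen, measured 31.2, 31.2 and 33.0 CPM in 5xFAD, against 23.8, 22.7 and 21.5 in Il3-/-5xFAD, a separation without overlap (-0.47 ± 0.11) that missed the threshold with a limma adjusted p of 0.0726. The 8 growth regulators had a median of 0.15, with Rptor, the mTOR partner raptor, at 0.17 ± 0.07 and Akt1 at -0.07 ± 0.09.

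**Figure D5:**
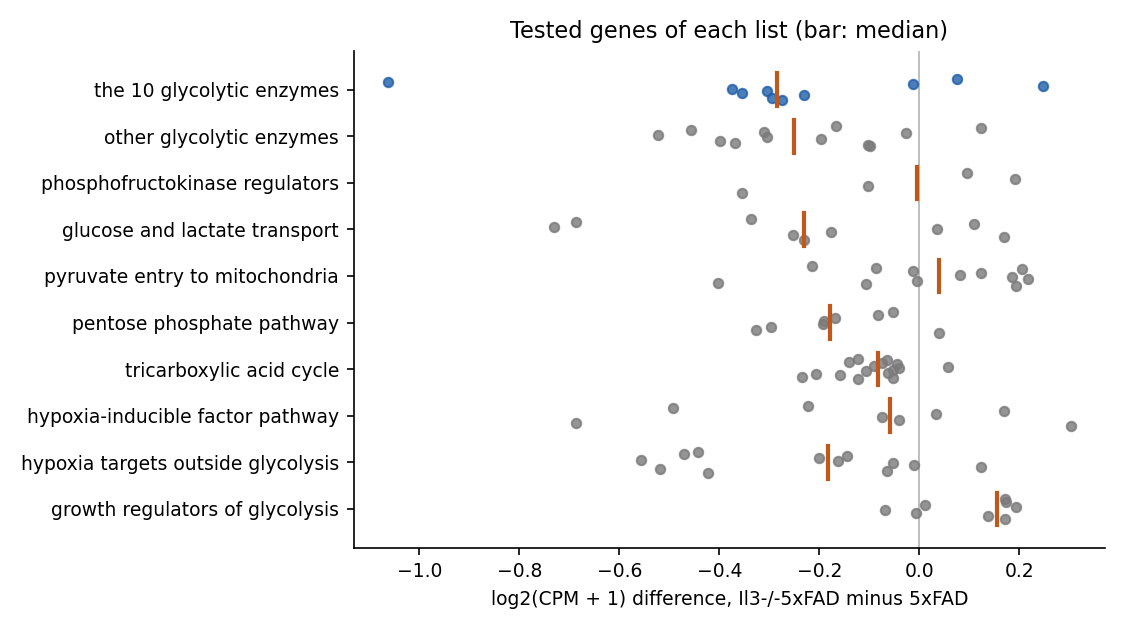
Log2(CPM + 1) differences of the tested genes of each list, 1 point per gene, with the median as an orange bar. The 10 glycolytic enzymes (blue) have a median of -0.28, the other glycolytic enzymes -0.25, the tricarboxylic acid cycle -0.08 and the growth regulators 0.15.

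Among 9798 other genes averaging 5 CPM or more, the patterns most like the mean of the 10 enzymes over the 6 libraries were those of H2afx (Pearson's r 0.997), Oaz1 (0.995), Efha1 (0.991), Arpc1a (0.989) and Tspo (0.989). None of these passed the test, and Tspo, the translocator protein used as an imaging marker of microglia, had a log2 difference of -0.74 ± 0.19 (limma adjusted p = 0.0784). The 5 genes were picked for the highest r among 9798, each over only 6 libraries of both genotypes. Their r values are a description and not a test.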

How the data were processed

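The deposited table holds CPM per gene and library, made by the authors. STAR, HTSeq and edgeR, with build mm9, are listed per the submitters' processing notes, which give no roles. For annotation, counting mode and filters, the method is not given in the sources used here. Every value was a whole multiple of 1 read (100% within 0.01 reads), so reads were recovered. Libraries of a group differed by more than sampling noise (chi-square over its degrees of freedom at least 22.1).

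Genes reaching 1 CPM in 3 or more libraries were tested with limma 3.58.1 (R 4.3.3, mean-variance trend, two-sided, threshold 0.05) on log2(CPM + 1), which understates changes of low genes. Ratios were compared by exact permutation. Alternatives changed pseudocount, filter, scaling, variance model, length trend and libraries, or used edgeR 4.0.16 and DESeq2 1.42.0 on recovered reads. The fit was also run on simulated reads with the same dispersion for all genes and no length trend. It recovered 100% of 2-fold changes, and 11 of 211 calls were false. Because that setting is simpler than these libraries, it cannot show how reliable the calls here are. The named genes were the 10 enzymes, called genes and the 2 most abundant tested genes of each list (marker lists are given as sums), and the 5 most alike genes; 1 gene so chosen is not reported here. Slc2a1, Slc2a3, Slc2a6 and Bnip3 fall outside this rule and were chosen after their values were seen, and genes with overlapping exons were named for the overlap. Hk1 and Hk3 also fall outside the rule and were named for the hexokinase shares. The members and lists were chosen with earlier results of these data known. Lengths and shared stretches came from GENCODE vM21 (GRCm38), not the files' build.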

Additional observations from a re-analysis of the deposited data

How the results depend on the processing

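Over all genes limma called 105. The count was 8 with no filter, 68 when a mean of 5 CPM was required, 65 with median-ratio rescaling, 10 without the variance trend, 51 with the length trend removed, 60 by edgeR with TMM and 605 by DESeq2, and 15 (without 5xFAD replicate 6) to 605 (without Il3-/-5xFAD replicate 3) with 1 library left out. Of the 10 enzymes, 1 was called lower (Pfkp) in the main setting, 0 with no filter, 0 without the variance trend and 2 by DESeq2 (Aldoa and Pfkp), and 0 to 4 with 1 library left out: 0 without 5xFAD replicate 5, 5xFAD replicate 6 or Il3-/-5xFAD replicate 2, and 4 without Il3-/-5xFAD replicate 3. None was called higher in any of the 17 alternatives. With no filter more genes are tested, and with a library left out fewer samples enter. More genes were called without 5xFAD replicate 4 (227) and without Il3-/-5xFAD replicates 1 and 3 (139 and 605). The causes of the changed counts were not tested. The log2 difference of Pfkl changed sign without Il3-/-5xFAD replicate 1 (0.051), without Il3-/-5xFAD replicate 2 (0.045; range -0.14 to 0.05 with 1 library left out) and by edgeR (0.00033); those of the other 9 enzymes kept theirs in all 17. The ratio of Pfkp to Pfkl differed by -1.19 to -0.80 and that of Pfkp to Pfkm by -1.40 to -0.999 over 10 alternatives each. No paired analysis was possible because the groups share no replicate number.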
